A study of Homo sapiens with 12 samples.

Results

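Transcripts of 37 genes of homologous recombination and of the Fanconi anaemia pathway were followed in 2 glioblastoma cell lines given an arginine-degrading enzyme. The 37 genes were taken by symbol from a table of 19824 gene entries, all 37 were found, and all 37 passed the filter on low values (10 or more in 3 or more libraries) along with 13591 other genes. Homologous recombination repairs a double-strand break by copying the sister chromatid, which exists only in S and G2 phase cells. Nucleases resect the broken ends, BRCA1, PALB2 and BRCA2 prepare the single strand, and that strand is then paired with its template. The Fanconi pathway frees DNA whose strands are crosslinked: a multi-subunit ubiquitin ligase marks FANCD2 and FANCI, and the crosslink is then cut out and repaired through recombination.

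The lines were U87 and U373, both labelled wild-type glioblastoma and grown in DMEM with serum. Each was given PBS (0 U/ml of enzyme) or 1 U/ml of BCT-100, which is arginase I coupled to polyethylene glycol, and total RNA was sequenced at 72 h, in 3 libraries for each of the 4 groups. The labels do not say whether replicates were separate cultures, so the p-values cover the spread among libraries alone, and that spread may be technical. Levels are the deposited scaled read counts, depths ran from 18.89 to 25.92 M reads per library, and changes are log2 of BCT-100 over PBS with the fitted standard error (SE). "Rose", "fell" and "called" refer to an adjusted p under 0.05 from limma with Benjamini-Hochberg adjustment over all 13628 genes tested.

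The glioblastoma label was compared with 13 glial markers. The filament protein VIM, with a mean of 177117 in U87 and 166871 in U373 under PBS, was abundant in both lines. GFAP, the astrocyte filament, had a mean of 3.58 in U87 against 52216 in U373, so this defining marker was near 0 in U87. Summed glial markers ran from 230446 to 234725 in U87 PBS libraries and from 302008 to 313106 in U373 PBS libraries. After BCT-100 they ran from 115857 to 119049 and from 98641 to 99947. With PBS, VIM made up most of the sum. Of the 11 glial markers tested, 9 were lower in U87 than in U373 with PBS and 2 were higher. That is 81.8% lower against a background of 40.1%. Of 8 leukocyte and microglial markers 3 passed the filter, AIF1 and CD3E were at 0 in every library, and PTPRC, the pan-leukocyte surface protein, had PBS means of 1.94 and 1.69. Their summed level, most of it the lysosomal protein CD68, ran from 6235 to 6401 in U87 PBS libraries and from 444 to 497 in U373 PBS libraries, and from 2504 to 2669 and from 213 to 238 after BCT-100. The 6 neuronal markers, among which TUBB3 and MAP2 made up most of the level, summed to between 4739 and 4785 in U87 PBS libraries and between 3200.1 and 3340.0 in U373 PBS libraries. After BCT-100 they summed to between 2819 and 2907 and between 2546 and 2594. Over all PBS and BCT-100 libraries, the 5 endothelial markers summed to at most 486 in U87 and 796 in U373, and the 5 epithelial markers to at most 50.9 and 396. The part of these markers in the changes of the repair genes was not tested. The principal component with 82.68% of the variance separated the lines, and the next, with 10.02%, separated BCT-100 from PBS.

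More of the repair genes fell than rose after BCT-100 in each line, and XRCC3, RAD52 and RAD50 rose in both. In U87, 23 of the 37 fell, 5 rose and 9 were not called. That is 75.7% called against a background of 69.3% of all genes tested, with 62.2% lower against a background of 35.7% and 13.5% higher against 33.6%. In U373, 19 fell, 7 rose and 11 were not called, or 70.3% called against a background of 71.4%, with 51.4% lower against 35.8% and 18.9% higher against 35.6%. The median log2 change was -0.40 in U87 and -0.28 in U373, against -0.005 and 0.0 over all genes. At least 2-fold falls were called for 11 members in U87 (29.7% against a background of 9.0%) and for 5 in U373 (13.5% against 10.1%). No member was called at least 2-fold higher in either line, where the backgrounds were 8.17% and 8.33%. The share called in either direction was near the background in both lines.

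In both lines 16 genes fell (43.2% against a background of 23.1%), 3 rose (8.11% against 22.3%) and 2 were called in opposite directions (5.41% against 9.53%). The 3 that rose in both were XRCC3, RAD52 and RAD50. The groups did not overlap for 28 of 37 members in U87 and 28 of 37 in U373, at 75.7% against backgrounds of 73.0% and 74.5%. Summed over all 37, the level went from 37243 ± 749 (SD, n = 3) to 30359 ± 705 in U87, a change of -18.5%. In U373 it went from 43214 ± 177 to 37857 ± 1584, or -12.4%. In bulk RNA, fewer cells of a type and less RNA per cell cannot be told apart. The 18 markers of proliferation and S phase moved with these sums. Of them 17 fell in U87 and 18 in U373 (94.4% and 100% against backgrounds of 35.7% and 35.8% lower), with medians of -1.93 and -1.46, and their summed level changed by -75.6% and -69.7%. Their part in the changes of the repair genes was not tested.

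**Figure D1:**
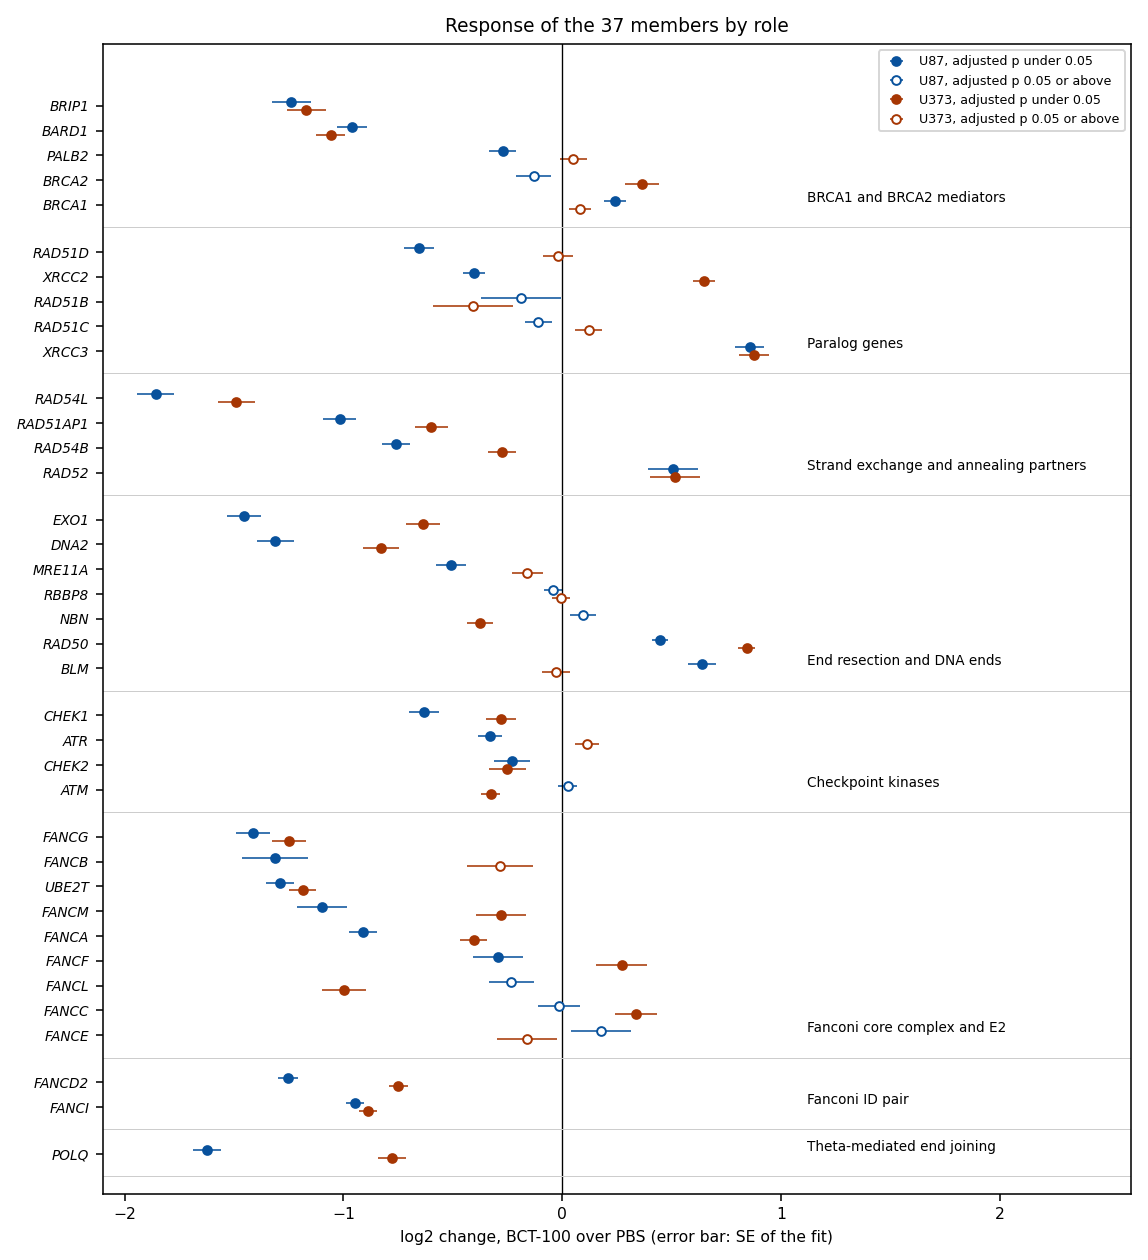
Log2 change of each of the 37 genes after BCT-100 (x axis) by role group, in U87 (blue) and U373 (brown), with SE bars and open symbols where the adjusted p was 0.05 or above. The strand exchange gene RAD54L has the lowest value in both lines (-1.86 and -1.49), and XRCC3 has the highest (0.86 and 0.88).

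Promoter stretches are shown for 6 of the genes, because these share a short motif near the start while their transcripts moved in different directions. Each runs from 100 bases before to 50 bases after the start in RefSeq (GRCh38.p14), 5′ to 3′ on the gene's strand. Capitals mark matches to E2F-type motifs, the sequences bound by the E2F factors of the cell cycle. The motifs searched, on both strands, were TTTCCCGC, TTTGGCGC, TTTCGCGC, TTTGCCGC, TTCCCGCC and TTGGCGGG, some of which overlap each other. FANCD2 (chr3:10026337-10026486, plus strand), BRIP1 (chr17:61863479-61863628, minus strand) and POLQ (chr3:121545939-121546088, minus strand) fell in both lines. XRCC3 (chr14:103715402-103715551, minus strand) rose in both, BLM (chr15:90717246-90717395, plus strand) rose in U87, and XRCC2 (chr7:152676092-152676241, minus strand) fell in U87 and rose in U373.
FANCD2: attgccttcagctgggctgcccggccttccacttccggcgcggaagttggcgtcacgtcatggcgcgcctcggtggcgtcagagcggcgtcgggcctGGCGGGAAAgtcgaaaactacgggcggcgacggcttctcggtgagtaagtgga
BRIP1: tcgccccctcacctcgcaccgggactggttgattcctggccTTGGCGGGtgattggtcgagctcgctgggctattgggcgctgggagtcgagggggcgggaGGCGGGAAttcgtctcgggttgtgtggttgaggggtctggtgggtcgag
POLQ: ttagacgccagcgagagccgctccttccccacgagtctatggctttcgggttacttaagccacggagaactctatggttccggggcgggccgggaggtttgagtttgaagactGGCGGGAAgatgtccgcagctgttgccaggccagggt
XRCC3: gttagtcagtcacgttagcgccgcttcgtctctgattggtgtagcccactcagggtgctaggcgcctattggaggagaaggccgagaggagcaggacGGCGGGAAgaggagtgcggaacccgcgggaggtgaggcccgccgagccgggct
BLM: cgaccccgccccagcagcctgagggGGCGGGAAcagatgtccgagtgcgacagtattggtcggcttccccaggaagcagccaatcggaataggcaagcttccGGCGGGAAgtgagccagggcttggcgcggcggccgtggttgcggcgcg
XRCC2: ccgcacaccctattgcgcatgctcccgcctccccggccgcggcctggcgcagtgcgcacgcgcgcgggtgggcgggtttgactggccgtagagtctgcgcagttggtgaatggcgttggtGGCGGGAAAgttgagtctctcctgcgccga
In all 6 the letters GGCGGGAA begin between 3 bases before and 20 bases after the annotated start. BRIP1 and BLM carry a further match upstream. These 6 were chosen after the matches were seen.

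Of the 37 genes, 33 had a window of 300 bases in RefSeq, from 250 before to 50 after the start. These 33 genes had 45 windows, and a gene was counted if any of its windows held the motif. An E2F-type motif was present for 13 of these 33 (39.4%), against 12.8% of 10397 tested genes with a window. Counted per single window, a unit unlike these shares of genes, the motif was present in 6.6% of all 35116 windows. Among genes that fell in both lines it was present for 7 of 13, and among genes that rose in at least 1 line for 5 of 9. Of the other 11 genes, FANCL alone had one. The cell cycle homology element (TTTGAA or TTCGAA) was present for 5 of 33 (15.2% against 16%), the CCAAT box (CCAAT) for 15 of 33 (45.5% against 43.9%) and a CRE-like motif (TGACGTCA) for 3 of 33 (9.09% against 3.72%). An ATF4-type motif (TGATGNAA) was present for RBBP8 alone (3.03% against 3.02%). A match describes the letters of a window and does not show binding.

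Among the 5 mediators around BRCA1 and BRCA2, the partners BRIP1 and BARD1 fell in both lines, and neither BRCA gene was called lower in either. BRIP1, the helicase that binds BRCA1 (chr17:61681266-61863521), read 570.2, 589 and 674 in the U87 PBS libraries and 238, 243 and 297 after BCT-100. Its U373 libraries read 1054, 1044 and 1119 with PBS and 471, 437 and 523 with BCT-100. In each line every treated library was below every PBS library, and the log2 changes were -1.24 (SE 0.088) and -1.17 (SE 0.088), with limma adjusted p of 1.04e-10 and 2.15e-10. BARD1, the obligate partner of BRCA1 in its ubiquitin ligase, went from 490.4 ± 15.5 to 252 ± 13.2 in U87 and from 811 ± 29.7 to 389 ± 14.95 in U373 (SD, n = 3 each). Its log2 changes were -0.96 (SE 0.068) and -1.06 (SE 0.068), so both genes fell about as far in one line as in the other.

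BRCA1, which promotes resection and brings in PALB2 (chr17:43044295-43170245), rose slightly in U87. Its libraries read 2633, 2663 and 2713 with PBS and 3189.5, 3178 and 3101 with BCT-100 in U87, without overlap. In U373 they read 2738, 2625 and 2608 with PBS and 2660.1, 2649 and 3161 with BCT-100, where BCT-100 replicate 3 alone stood above the PBS libraries. The log2 change was 0.24 (SE 0.050) in U87 (limma adjusted p = 0.000266) and 0.083 (SE 0.050) in U373 (limma adjusted p = 0.148). Without U373 BCT-100 replicate 1 or 2, the U373 change was 0.12 and 0.13 and was called (limma adjusted p = 0.0472 and 0.0408). Without replicate 3, the high library, it was -0.001 and was not called (limma adjusted p = 0.998).

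BRCA2, which acts on resected DNA before strand exchange (chr13:32315474-32400266), read 895, 892 and 1014 in U87 PBS libraries and 967, 759 and 840.2 with BCT-100, and these overlapped. In the U373 libraries it read 574, 569 and 596 with PBS and 719.6, 708 and 812 with BCT-100, all higher than with PBS. The change was -0.13 (SE 0.078) in U87, not called, and 0.36 (SE 0.078) in U373, called at a limma adjusted p of 0.000308. Without U87 BCT-100 replicate 1 the U87 change was -0.22 and was called lower (limma adjusted p = 0.0146), as it was with equal library totals (-0.18, limma adjusted p = 0.0475). PALB2, the bridge between BRCA1 and BRCA2, read 1071, 1117 and 1130.4 and then 888, 871 and 992 in U87, a fall of 0.27 (SE 0.062) without overlap. U373 libraries of PALB2 read 372, 407 and 387 and then 401, 394 and 412, which overlapped (0.050 (SE 0.062), not called).

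The 5 paralog genes RAD51B, RAD51C, RAD51D, XRCC2 and XRCC3, whose products act in complexes that assist strand exchange, went in different directions. XRCC3 (chr14:103697609-103715504), the partner of RAD51C in a complex of their own, had the largest rise of any member in both lines. It read 409, 368 and 422 in U87 PBS libraries and 729, 725 and 716 with BCT-100. In U373 the values were 483, 425 and 437 with PBS and 862, 813 and 796 with BCT-100. All 6 treated libraries were above all 6 PBS libraries, with changes of 0.86 (SE 0.067) and 0.88 (SE 0.067) and limma adjusted p of 5.24e-10 and 3.07e-10. Exons of XRCC3 overlap those of KLC1 on the other strand, which had means of 3968 and 4049 in U87 and was not called in either line (0.029 (SE 0.037) and 0.015 (SE 0.037)). The use of strand in counting is not given in the sources used here, so shared reads cannot be told apart.

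XRCC2, a member of the larger paralog complex (chr7:152644779-152676165), moved in opposite directions in the lines. It read 1413, 1391 and 1458 in U87 PBS libraries and 1112, 1110.3 and 1004 with BCT-100. The U373 libraries read 2102, 2386 and 2109 with PBS and 3415, 3353 and 3562 with BCT-100. No groups overlapped, and the changes were -0.40 (SE 0.051) and 0.65 (SE 0.051). The difference of responses, U87 minus U373, was -1.05 (SE 0.072) (limma adjusted p = 1.61e-10), below that of any other member. XRCC2 was the highest of the 5 paralogs, and their summed level went from 4501 ± 149 to 6170 ± 103 in U373 (37.1%), and from 3348 ± 137 to 2999.6 ± 146 in U87 (-10.4%).

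RAD51D, of the same complex as XRCC2, read 777, 654 and 711 in U87 PBS libraries and 459.9, 466 and 432 with BCT-100, with no overlap. U373 libraries of RAD51D read 817, 878 and 886 with PBS and 791, 887 and 869 with BCT-100, which overlapped. It fell by 0.65 (SE 0.068) in U87, and its U373 change of -0.020 (SE 0.068) was not called. The difference of responses was -0.63 (SE 0.096) (limma adjusted p = 1.1e-05). RAD51B, a low gene of that complex, read 165, 126 and 153 with PBS and 129, 152 and 109.8 with BCT-100 in U87. The U373 values were 81.00, 77.2 and 80.00 with PBS and 78.4, 54.8 and 49.3 with BCT-100, and the groups overlapped in both lines. Its changes of -0.19 (SE 0.18) and -0.41 (SE 0.18) had the largest SE of any member and were not called. Without U373 BCT-100 replicate 1 the U373 change was -0.60 and was called (limma adjusted p = 0.00635). RAD51C, common to both paralog complexes, was not called in either line (-0.11 (SE 0.061) and 0.12 (SE 0.061)). It was called lower in U87 without BCT-100 replicate 1 (-0.16, limma adjusted p = 0.0331) and higher in U373 without BCT-100 replicate 1 (0.16, limma adjusted p = 0.0487).

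**Figure D2:**
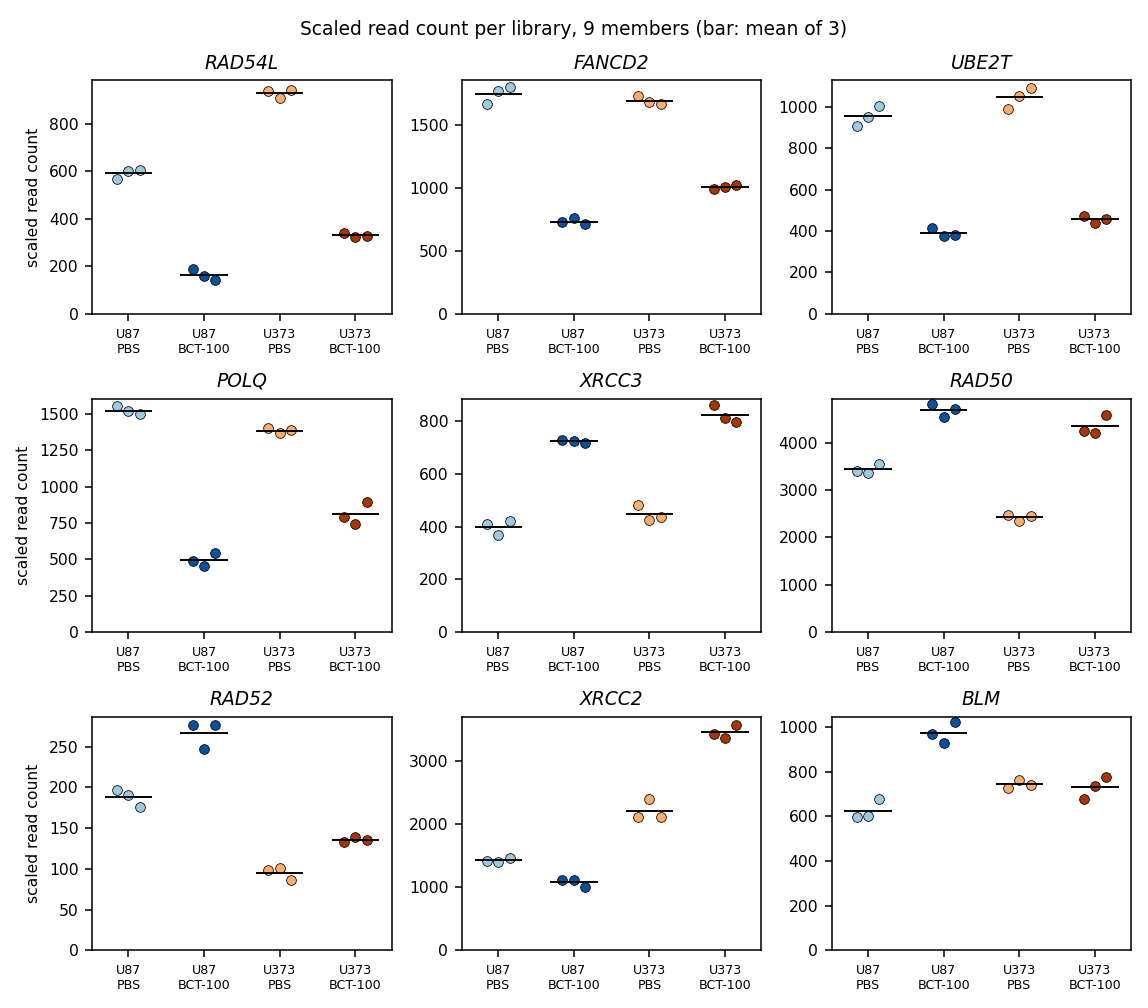
Scaled read count per library (y axis, from 0) of 9 genes in the 4 groups, each point a library and each bar the mean of 3. RAD54L, FANCD2, UBE2T and POLQ fall in both lines, XRCC3, RAD50 and RAD52 rise in both, XRCC2 falls in U87 and rises in U373, and BLM rises in U87 alone by the call.

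Of the 4 partners in strand exchange and annealing, 3 fell and 1 rose in both lines. Over all genes tested, 23.1% were lower and 22.3% higher in both. RAD54L, a motor protein of strand invasion (chr1:46247688-46278473), had the lowest change of all 37. It read 568, 601 and 604 in U87 PBS libraries and 188, 159.6 and 142.4 with BCT-100. In U373 it read 938, 906 and 942 with PBS and 339, 322 and 329 with BCT-100. The groups were far apart, at changes of -1.86 (SE 0.084) and -1.49 (SE 0.084) with limma adjusted p of 7.02e-14 and 2.11e-12. Exons of RAD54L overlap LRRC41 on the other strand, which had PBS means of 1621.4 in U87 and 1981.1 in U373. LRRC41 rose by 0.13 (SE 0.041) in U87 and fell by 0.30 (SE 0.041) in U373. Reads shared by RAD54L and LRRC41 cannot be told apart. RAD51AP1, which stimulates strand pairing, fell by 1.02 (SE 0.076) and 0.60 (SE 0.076). RAD54B, a relative of RAD54L, fell by 0.76 (SE 0.064) and 0.28 (SE 0.064). It shares exons with FSBP on its strand, whose own change was 2.12 (SE 0.30) in U87 and -0.43 (SE 0.30), not called, in U373. With PBS and BCT-100, FSBP had means of 37.5 and 152.0 in U87 and of 171.1 and 129.5 in U373. Reads shared by RAD54B and FSBP cannot be told apart, and their part in these changes was not tested.

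RAD52, which anneals complementary single strands (chr12:912077-990053), went the other way. It read 196.2, 190.4 and 176 in U87 PBS libraries and 277, 247 and 276 with BCT-100. U373 libraries of RAD52 read 98.2, 101 and 85.8 with PBS and 133, 139 and 136 with BCT-100. Every treated library was above every PBS library of its line. The rises were 0.51 (SE 0.11) and 0.52 (SE 0.11) (limma adjusted p = 0.000572 and 0.000447), and they differed between lines by -0.010 (SE 0.16), not called.

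Among the 7 genes of end resection, the long-range nucleases fell and RAD50 rose in both lines. The summed level of the group stayed close to that of PBS, with changes of 6.7% in U87 and 4.4% in U373. EXO1, a nuclease of long-range resection (chr1:241847967-241895148), read 1028, 909.6 and 937 in U87 PBS libraries and 372.9, 341 and 333 with BCT-100. The U373 values were 861, 863 and 979 with PBS and 569, 527 and 645 with BCT-100. Neither pair of groups overlapped, and EXO1 fell by 1.46 (SE 0.077) in U87 and by 0.64 (SE 0.077) in U373 (limma adjusted p = 9.84e-13 and 3.1e-07). DNA2, the nuclease and helicase of the other long-range branch, read 389, 388 and 437 with PBS and 169, 172 and 147 with BCT-100 in U87. U373 libraries of DNA2 read 619, 661 and 678 with PBS and 351, 369 and 383 with BCT-100. It fell without overlap in both lines, by 1.31 (SE 0.084) and 0.83 (SE 0.084).

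The MRN complex, which senses broken ends and starts resection, did not move as a unit. RAD50, its ATPase (chr5:132556019-132646344), read 3402, 3361 and 3546 in U87 PBS libraries and 4812, 4550.3 and 4708 with BCT-100. In U373 it read 2475, 2348 and 2449 with PBS and 4256, 4213 and 4582 with BCT-100. It rose without overlap by 0.45 (SE 0.037) and 0.84 (SE 0.037) (limma adjusted p = 1.29e-09 and 4.57e-14). NBN, the subunit that recruits ATM, read 2117, 1969 and 2215 with PBS and 2331, 2035 and 2369.6 with BCT-100 in U87, which overlapped. Its U373 values were 3067, 3094 and 3151 with PBS and 2409, 2217 and 2566 with BCT-100, all lower. NBN changed by 0.094 (SE 0.060) in U87, not called, and fell by 0.38 (SE 0.060) in U373. Without U87 BCT-100 replicate 2 the U87 change was 0.16 and was called higher (limma adjusted p = 0.0129), and with a replicate block it was called at 0.094 (limma adjusted p = 0.0451). MRE11A, the nuclease, fell by 0.51 (SE 0.070) in U87 and changed by -0.16 (SE 0.070) in U373, where the limma adjusted p of 0.0502 missed the threshold and 11 of 23 alternative settings called it.

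BLM, a helicase that works with DNA2 and resolves joint molecules (chr15:90717327-90816165), rose in U87. It read 599, 600.4 and 677 in U87 PBS libraries and 968, 929.9 and 1025 with BCT-100, without overlap. U373 libraries of BLM read 728, 764 and 741 with PBS and 677, 737 and 779 with BCT-100, which overlapped. The changes were 0.64 (SE 0.064) and -0.028 (SE 0.064), and the difference of responses was 0.67 (SE 0.091) (limma adjusted p = 2.99e-06). RBBP8, or CtIP, which activates the MRE11 nuclease, read 2311, 2283 and 2341 with PBS and 2310.0, 2196 and 2239.9 with BCT-100 in U87. U373 libraries of RBBP8 read 2121, 2202 and 2355 with PBS and 2141, 2218 and 2296 with BCT-100. All 4 groups of RBBP8 overlapped, and its fold changes were 0.973 and 0.997.

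Of the 4 checkpoint kinases, CHEK1 and CHEK2 fell in both lines, ATR in U87 and ATM in U373, none of them 2-fold. That is 75% lower in each line, against backgrounds of 35.7% and 35.8%. CHEK1, the effector kinase of ATR (chr11:125625136-125676255), read 754, 657 and 788 in U87 PBS libraries and 472, 516 and 429 with BCT-100. In U373 it read 1674, 1625 and 1650.1 with PBS and 1351, 1311 and 1413 with BCT-100. It fell without overlap by 0.63 (SE 0.068) and 0.28 (SE 0.068). CHEK1 shares exons on its strand with STT3A, which was not called and had higher PBS means, 3754.8 in U87 and 8354.5 in U373. Reads shared by CHEK1 and STT3A cannot be told apart. ATR, activated by single-stranded DNA, read 2597, 2604 and 2464 with PBS and 1997, 1901 and 2212 with BCT-100 in U87, without overlap. The U373 values were 1522, 1356 and 1498 with PBS and 1619, 1501 and 1609 with BCT-100, which overlapped. ATR fell by 0.33 (SE 0.054) in U87 and changed by 0.11 (SE 0.054) in U373 (limma adjusted p = 0.0694). The U373 change of ATR was called with a replicate block, in a fit of U373 alone and without U87 BCT-100 replicate 3, U373 PBS replicate 1 or U373 BCT-100 replicate 2 (limma adjusted p between 0.035 and 0.0467).

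ATM, activated by double-strand breaks (chr11:108222484-108369102), showed the reverse order. In U87 it read 1734, 1623 and 1807 with PBS and 1792, 1696 and 1763 with BCT-100, which overlapped. Its U373 libraries read 3299.5, 3319.9 and 3240.2 with PBS and 2730.1, 2466 and 2676 with BCT-100, all lower than with PBS. The change was 0.025 (SE 0.044) in U87 and -0.33 (SE 0.044) in U373 (limma adjusted p = 1.41e-06). CHEK2, the effector of ATM, fell by 0.23 (SE 0.084) and 0.25 (SE 0.084), a call that was lost in U87 without PBS replicate 1 or 3 or BCT-100 replicate 1 (limma adjusted p of 0.0506, 0.0694 and 0.0791). The U373 call was lost with voom weights and in a fit of U373 alone (limma adjusted p of 0.0605 and 0.0603). CHEK2 has 4 named pseudogenes, and its exons overlap HSCB on the other strand, which rose by 0.70 (SE 0.11) and 0.85 (SE 0.11).

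The Fanconi core complex and its E2 enzyme UBE2T fell in U87 for 6 of 9 genes, with 0 rises, or 66.7% lower against a background of 35.7%. In U373, 5 fell and 2 rose, or 55.6% lower against 35.8%. FANCG, an adaptor subunit (chr9:35073835-35080016), fell most in both lines. It read 772, 734 and 731 in U87 PBS libraries and 298, 283 and 257 with BCT-100. U373 libraries of FANCG read 592, 609.7 and 679 with PBS and 248, 260.0 and 281 with BCT-100. These groups did not overlap, at changes of -1.42 (SE 0.078) and -1.25 (SE 0.078) and limma adjusted p of 1.92e-12 and 1.17e-11. UBE2T, the E2 that works with FANCL, went from 955 ± 47.8 to 390.4 ± 21.1 in U87 (SD, n = 3 each). In U373 it went from 1046 ± 51.98 to 459 ± 17.4, and the changes were -1.29 (SE 0.063) and -1.19 (SE 0.063). FANCA, the partner of FANCG, fell by 0.91 (SE 0.063) and 0.41 (SE 0.063), and its exons overlap ZNF276 on the other strand, which rose in both lines. FANCM, the motor protein that anchors the complex to DNA, fell by 1.10 (SE 0.12) and 0.28 (SE 0.12). Its U373 call was lost without PBS replicate 1 or 3, or BCT-100 replicate 1 or 2 (limma adjusted p between 0.0864 and 0.131).

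FANCL, the ubiquitin ligase subunit itself (chr2:58159243-58241372), fell in U373. It read 419.9, 485 and 400.0 in U373 PBS libraries and 174, 248 and 235 with BCT-100. In U87 it read 781, 777 and 786 with PBS and 687, 658 and 649 with BCT-100. Neither pair overlapped. The U373 change was -0.998 (SE 0.10) (limma adjusted p = 3.56e-08), and the U87 change of -0.23 (SE 0.10) was at the threshold (limma adjusted p = 0.05) and not called, while 11 of 23 alternative settings called it lower. The difference of responses was 0.76 (SE 0.15), the highest of any member. Exons of FANCL overlap VRK2 on the other strand, a gene present in U87 and near 0 in U373. With PBS and BCT-100, VRK2 had means of 503.9 and 455.4 in U87 and of 0.9 and 0.0 in U373. Reads shared with VRK2 cannot be told apart, and their part in the difference was not tested. FANCB, which holds FANCL in the complex, read 198, 154 and 169 with PBS and 88.1, 52.3 and 70.7 with BCT-100 in U87. The U373 values were 339, 338 and 342 with PBS and 259.7, 264 and 316 with BCT-100. The groups did not overlap in either line, yet the U87 change of -1.31 (SE 0.15) was called and the U373 change of -0.29 (SE 0.15) was not (limma adjusted p = 0.0995). The U373 change was called with voom weights, in a fit of U373 alone and without U87 BCT-100 replicate 2 (limma adjusted p of 0.00971, 0.00784 and 0.0419). The difference of these responses was -1.03 (SE 0.21).

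FANCC, FANCE and FANCF form the rest of the core. FANCC, an adaptor (chr9:95099054-95426796), read 271, 250.2 and 270.1 in U87 PBS libraries and 293, 212 and 286 with BCT-100, which overlapped. U373 libraries of FANCC read 600.4, 577 and 564 with PBS and 702, 750.0 and 750.1 with BCT-100, a rise of 0.34 (SE 0.096) without overlap. FANCE, which contacts FANCD2, read 86.1, 113 and 131 with PBS and 123, 141 and 107 with BCT-100 in U87. In U373 it read 346, 341 and 342 with PBS and 285, 327 and 309 with BCT-100. Its groups overlapped in U87 and not in U373, and the changes of 0.18 (SE 0.14) and -0.16 (SE 0.14) were not called. FANCF, an adaptor encoded by a single exon, read 234, 289 and 309.5 with PBS and 202, 221 and 254 with BCT-100 in U87, with overlap. Its U373 values were 210.0, 191 and 187 with PBS and 253, 233 and 224 with BCT-100, without overlap. The changes of -0.29 (SE 0.12) and 0.27 (SE 0.12) were called in opposite directions (limma adjusted p = 0.0305 and 0.0421). Leaving out U87 PBS replicate 2 or 3 or U87 BCT-100 replicate 1 or 2 ended the U87 call (limma adjusted p of 0.0693 to 0.155). Leaving out U373 PBS replicate 2 or 3 or U373 BCT-100 replicate 1 or 2 ended the U373 call (0.0674 to 0.139), as did a replicate block (limma adjusted p = 0.0503).

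Both substrates of the ligase fell in both lines. FANCD2 (chr3:10026414-10101930), whose promoter stretch holds an E2F-type match near the start, read 1671, 1773 and 1802 in U87 PBS libraries and 726, 760.3 and 712 with BCT-100. U373 libraries of FANCD2 read 1732, 1683 and 1669 with PBS and 993, 1005 and 1027 with BCT-100. There was no overlap, and the changes were -1.25 (SE 0.045) and -0.75 (SE 0.045) with limma adjusted p of 1.53e-15 and 5.35e-12. FANCI, its clamp partner (chr15:89243949-89317261), read 2653, 2617 and 2670.3 with PBS and 1396, 1399.8 and 1322 with BCT-100 in U87. The U373 values were 5767, 5387 and 5536 with PBS and 2937, 2874 and 3218 with BCT-100. It fell without overlap by 0.95 (SE 0.042) and 0.89 (SE 0.042), and the lines did not differ by the test (-0.060 (SE 0.059)). FANCI overlaps POLG on the other strand, which also fell (-1.06 (SE 0.055) and -0.64 (SE 0.055)). The summed level of the pair changed by -52.1% in U87 and by -44.6% in U373.

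POLQ, polymerase theta, which joins resected ends at short homologies in place of recombination (chr3:121431427-121546641), read 1552, 1518 and 1499 in U87 PBS libraries and 487, 456 and 541 with BCT-100. U373 libraries of POLQ read 1404, 1367 and 1389 with PBS and 793, 746 and 893 with BCT-100. No groups overlapped. The changes were -1.62 (SE 0.065) and -0.78 (SE 0.065), and the difference of responses was -0.85 (SE 0.091) (limma adjusted p = 1.35e-07).

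**Figure D3:**
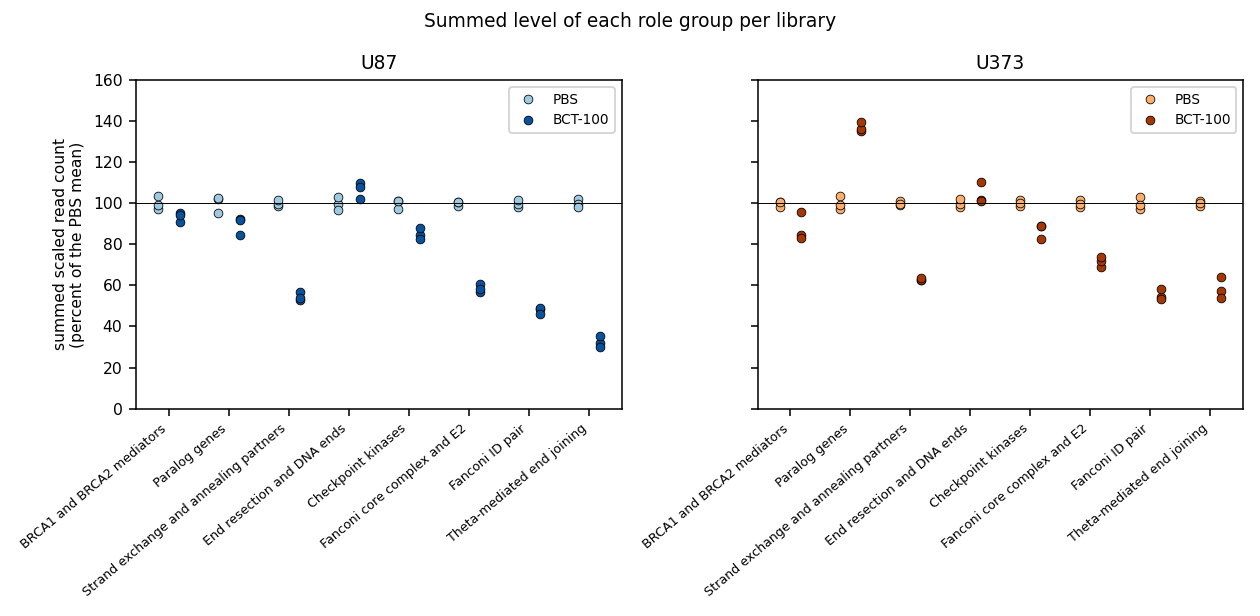
Summed scaled read count of each role group per library, as a percentage of the PBS mean of the line (y axis, from 0), for PBS (light) and BCT-100 (dark). The paralog genes rise by 37.1% in U373 and change by -10.4% in U87, the Fanconi ID pair changes by -52.1% and -44.6%, and end resection stays close to PBS.

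The responses of the lines were then compared by the difference of the changes, U87 minus U373. It was below 0 for 21 of 37 members, above 0 for 4 and not called for 12. That is 67.6% called against a background of 56.8%, with 56.8% lower against a background of 30.7% and 10.8% higher against 26.1%. The median difference was -0.35 against -0.036 over all genes. In 28 of 37 members the value was lower in U87 than in U373. Across the 37 genes the changes in the lines correlated at Pearson r = 0.777 (0.496 over all 13628 genes), as a description over genes, which are not independent replicates. The members with a called difference above 0 were FANCL, BLM, NBN and ATM. Those furthest below 0 were XRCC2, FANCB and POLQ. Of the 4 genes with falls of more than 1 in both lines, BRIP1 (-0.068 (SE 0.13)), UBE2T (-0.10 (SE 0.089)) and FANCG (-0.17 (SE 0.11)) had differences that were not called. That of the other, RAD54L, was -0.37 (SE 0.12) and was called (limma adjusted p = 0.012).

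**Figure D4:**
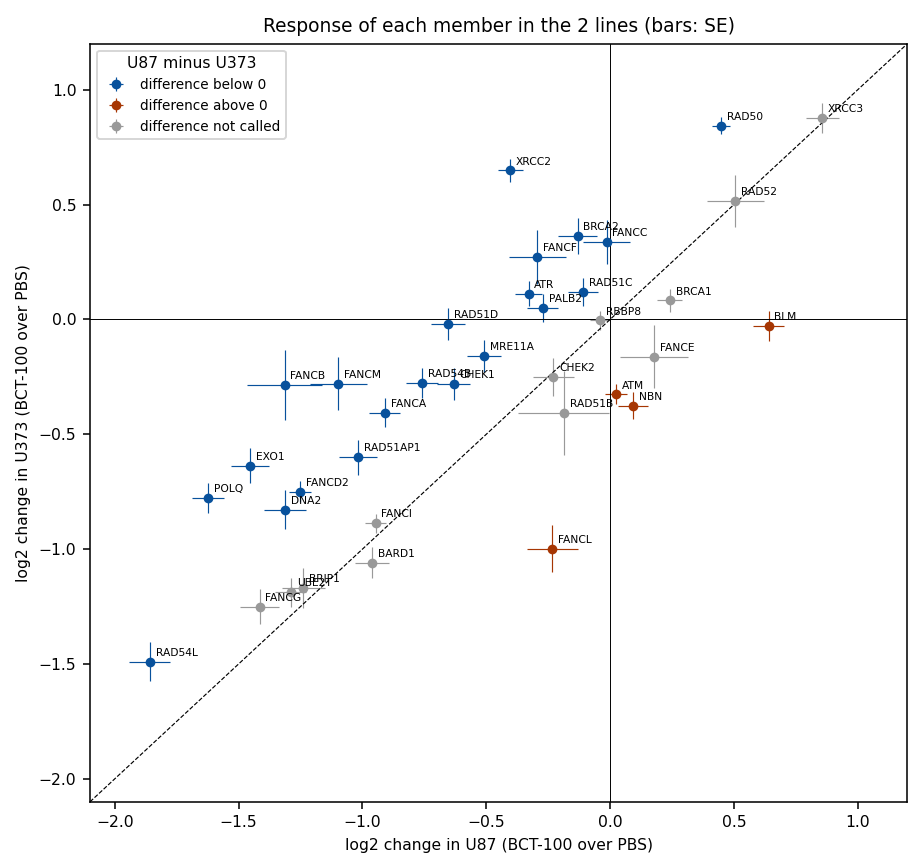
Log2 change in U87 (x axis) against that in U373 (y axis) for the 37 genes with SE bars, with the dashed line at equal change and colours by the test of the difference. Most points lie above the dashed line, 21 of them called, and XRCC2 and FANCF lie in the quadrant lower in U87 and higher in U373.

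Untreated levels also differed between the lines, in a contrast that uses the PBS libraries of the responses. With PBS, 12 members were higher in U87, 18 lower and 7 not called, or 81.1% called against a background of 83.1%, with 32.4% higher against 43.0% and 48.6% lower against 40.1%. The groups did not overlap for 31 of 37 (83.8% against 84.6%). PALB2 was 2.84-fold higher in U87 and CHEK2 2.54-fold, whereas FANCE was at 0.318 of its U373 level and CHEK1 at 0.443. STT3A, which shares exons with CHEK1, had PBS means of 3754.8 in U87 and 8354.5 in U373. HSCB, whose exons overlap those of CHEK2, had PBS means of 272.3 and 112.0. The part of shared reads in these line differences was not tested. FANCD2 and EXO1, which fell more in U87, had PBS levels that were not called different (0.045 (SE 0.045) and 0.089 (SE 0.077)). Per kilobase of the principal transcript, UBE2T had the highest PBS level among the members in U87 (1052) followed by RBBP8 (702). In U373 FANCI (1180) and UBE2T (1152) led. FANCM was among the lowest in both (34.9 and 35.7), and the lowest in U373 was RAD51B (30.6).

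A further 42 genes of recombination and Fanconi repair outside the 37 moved in mixed directions. In U87, 21 fell, 7 rose and 14 were not called (median -0.20), and in U373, 25 fell, 10 rose and 7 were not called (median -0.33). These are 66.7% and 83.3% called against backgrounds of 69.3% and 71.4%, with 50% and 59.5% lower against 35.7% and 35.8%. The falls of smallest p in U87 were MCM8, a helicase of recombination, at -1.02 (SE 0.047), PARPBP, an inhibitor of recombination, at -2.07 (SE 0.10), and SHFM1, the small BRCA2-binding protein DSS1, at -0.75 (SE 0.047). In U373 they were BABAM1 and SHFM1, at -1.37 (SE 0.057) and -0.96 (SE 0.047), and RPA1, of the single-strand binding complex, at -0.53 (SE 0.032). ZSWIM7, of a complex that supports recombination, rose in both lines, by 0.93 (SE 0.087) and 1.19 (SE 0.087). Of 13 checkpoint partners, 8 fell and 1 rose in U87, and 6 fell and 4 rose in U373 (69.2% and 76.9% called against 69.3% and 71.4%). TIMELESS, which stabilises forks, fell in both, at -0.86 (SE 0.047) and -1.05 (SE 0.047), and RAD17, a clamp loader, rose in both, at 0.48 (SE 0.053) and 0.44 (SE 0.053).

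**Figure D5:**
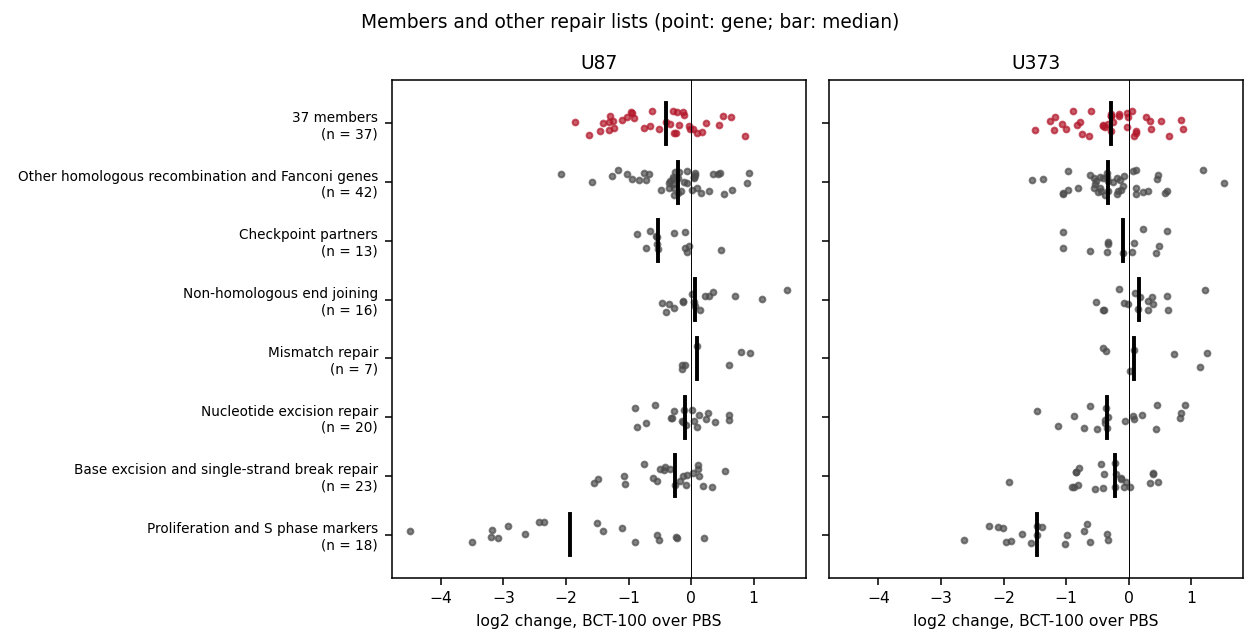
Log2 change after BCT-100 (x axis) of the 37 genes (red), of 6 other repair lists and of 18 proliferation markers, each point a gene and each bar the median. The medians of the 37 genes are -0.40 and -0.28, those of end joining 0.058 and 0.16, and those of the proliferation markers -1.93 and -1.46.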

How the data were processed

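Total RNA of 12 libraries was sequenced. The genome build was hg38 and the tools were STAR and RSEM, per the submitters' processing notes, which give no versions. The authors deposited 1 signal value per gene and library, a scaled read count; the values show RSEM-type estimates divided by 1 factor per library, whose origin is not given in the sources used here. With that factor undone, 85.5% to 86.9% of values above 0 were whole within 0.001, too few to recover counts. Groups follow each sample's treatment label, because the protocol label gives the PBS control for every sample.

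Of 19844 entries, 20 were left out because they repeated another entry in symbol and in the value of every library. Of the rest, 42 carry a symbol used more than once. No sample column was left unmapped. The 13628 genes reaching 10 in 3 or more libraries were fitted as log2(value + 1) with limma 3.58.1 in R 4.3.3 (trended, robust prior, 4 group means, 8 residual degrees of freedom), keeping the authors' scaling. Fold changes on this scale understate changes of low genes. The Benjamini-Hochberg adjustment was used, with a threshold of 0.05. The fit compared BCT-100 with PBS within a line, the responses of U87 and U373 with each other, and U87 against U373 in PBS. The test was run on simulated data in which a small set of genes changed in U87 BCT-100 alone. That run did not cover the difference of the responses or changes in most genes, and its outcome is not reported here. Positions and transcript lengths came from GENCODE v29 (GRCh38), promoters from RefSeq (GRCh38.p14).

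Some single genes of the lists are not reported here. The members and all lists were chosen with earlier results of these data known. Every library is given for the largest fall and the smallest change or a rise in each role group, for members called higher in a line or in opposite directions, and for the 3 largest called differences each way. Other lists name up to 3 genes of smallest p per direction. Alternatives were other pseudocounts, filters, scalings, voom weights, separate fits, a replicate block, a threshold test and leaving out each library.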

Additional observations from a re-analysis of the deposited data

Results flagged for a closer look

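For 25 genes the response to BCT-100 differed between U87 and U373 by limma's test of the difference (log2, U87 minus U373). The difference was positive for FANCL (0.76), BLM (0.67), NBN (0.47) and ATM (0.35). BLM rose in U87 and was not called in U373, and the other 3 fell in U373 and were not called in U87. Among genes that fell in both lines, the fall was larger in U87 for POLQ (-0.85), EXO1 (-0.82), FANCM (-0.82), FANCD2 (-0.51), FANCA (-0.50), DNA2 (-0.48), RAD54B (-0.48), RAD51AP1 (-0.42), RAD54L (-0.37) and CHEK1 (-0.35). RAD50 rose less in U87 (-0.39). XRCC2 (-1.05) and FANCF (-0.57) were called in opposite directions. FANCB (-1.03), RAD51D (-0.63), ATR (-0.44), MRE11A (-0.35) and PALB2 (-0.32) fell in U87 and were not called in U373. BRCA2 (-0.49) and FANCC (-0.35) rose in U373 and were not called in U87. RAD51C (-0.23) was not called in either line. The difference for FANCC was -0.20 without U87 BCT-100 replicate 2 (limma adjusted p = 0.1), and it lost its call with no filter, with TMM scaling, and without U87 PBS replicate 1 or 3, U373 PBS replicate 2 or 3 or U373 BCT-100 replicate 2 or 3 (limma adjusted p of 0.0512 to 0.0684). That for RAD51C lost its call with TMM scaling and without U87 PBS replicate 3, U87 BCT-100 replicate 3, U373 PBS replicate 1 or 2 or U373 BCT-100 replicate 2 or 3 (limma adjusted p of 0.0556 to 0.0877). BRCA1 was not among the 25, but its difference was called under TMM and median-of-ratios scaling, with voom weights and without U373 BCT-100 replicate 3 (0.16 to 0.24, limma adjusted p of 0.000332 to 0.0462), and that of FANCE was called without U87 PBS replicate 3 (0.48, limma adjusted p = 0.0377). What sets these differences was not tested, and single libraries were not tested for deviation from their group of 3.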

How the results depend on the processing

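Apart from the threshold test, 3182 member values were recomputed under the alternatives; 3075 stayed on their side of the threshold, 43 lost a call, 64 gained one, and 0 changed sign where either value was called. Sign changes between values that were both not called numbered 42 and are among the 3075; they lay between -0.023 and 0.135. Calls were lost for CHEK2, FANCF, FANCM, RAD51C, FANCC, RAD51AP1 and XRCC3 (the last 2 at baseline), and the cause was not tested. FANCF in U373 lost its call under no filter, TMM, equal totals and median-of-ratios scaling (limma adjusted p of 0.0515 to 0.0618) and with the block (0.0503). Against a fold of 1.5, a stricter test by construction, calls fell to 2768 genes, 1 member higher and 15 lower in U87, to 3179 genes, 2 higher and 10 lower in U373, to 1747 genes, 0 higher and 2 lower for the difference, and to 5846 genes, 5 higher and 8 lower at baseline. Leaving out each library in turn gave 8944 to 9454 genes, 5 to 6 members higher and 21 to 24 lower in U87. In U373 it gave 9268 to 9714, 6 to 8 and 18 to 21, for the difference 7337 to 7566, 4 to 5 and 19 to 21, and at baseline 10968 to 11319, 11 to 13 and 17 to 19. The log2 change of the summed level was -0.295 in U87 and -0.191 in U373. Without each library in turn it ran from -0.31 to -0.277 and from -0.226 to -0.17, as a share of the library total it was -0.343 and -0.214, and the mean of log2 values, which weighs every member alike, gave -0.527 and -0.288. Deviations from the group means correlated at -0.07 to 0.023 between same-numbered libraries and at -0.067 to 0.081 between others. No shared effect by number was seen, but with 3 libraries per group this cannot show whether the numbers pair samples. With a replicate block, 9465 genes were called in U87 (6 members higher, 24 lower), 9709 in U373 (7 and 19), 7764 for the difference (4 and 21) and 11339 at baseline (13 and 18); it added calls for FANCL and NBN in U87, ATR in U373 and POLQ at baseline, and ended that of FANCF in U373. A fit of each line alone gives no difference or baseline value. The planned count models were not run, since too few of the values above 0 came out as whole reads. The low genes RAD51B, FANCB and FANCE had the largest SEs, and the part of depth in this was not tested.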

Other observations

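Other repair pathways were described by the same fit, in which 69.3% of all genes tested were called in U87 (33.6% higher, 35.7% lower) and 71.4% in U373 (35.6% higher, 35.8% lower). Of 16 genes of non-homologous end joining, 8 rose and 4 fell in U87 and 7 rose and 3 fell in U373 (75% and 62.5% called). NHEJ1, or XLF, which aligns ends for ligation, rose in both lines, by 0.71 (SE 0.077) and 1.22 (SE 0.077), and XRCC5, the Ku80 end-binding subunit, fell by 0.40 (SE 0.029) in U87. Of 7 mismatch repair genes, PMS2, PMS1 and MLH3 rose in both lines, by 0.94, 0.80 and 0.60 in U87 and by 1.15, 1.25 and 0.73 in U373, and MSH6 fell in both. Of the 7, 85.7% were called in U87 and 71.4% in U373. PMS2 has related copies whose reads can be shared. Base excision and single-strand break repair had 13 of 23 lower in each line (56.5%), with 2 higher in U87 and 4 in U373, and 65.2% and 73.9% called. In this list FEN1, the flap nuclease, changed by -1.06 (SE 0.049) and -0.80 (SE 0.049), and LIG1, the replicative ligase, by -1.91 (SE 0.085) in U373. Nucleotide excision repair had 9 of 20 lower and 6 higher in U87 and 10 lower and 6 higher in U373 (75% and 80% called), with the damage sensor DDB2 at -0.89 (SE 0.088) and -1.47 (SE 0.088). MAD2L2, ERCC1 and ERCC4 stand in more than a single list.

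Of 20 regulators of the E2F, MYB and DREAM families, 12 fell and 5 rose in U87 and 9 fell and 8 rose in U373 (85% called in each). The activators of S phase and mitosis E2F1 and FOXM1 fell in both lines, at -1.34 (SE 0.050) and -2.53 (SE 0.033) in U87 and -1.88 (SE 0.050) and -0.85 (SE 0.033) in U373. E2F7, a repressor, rose in both, at 0.54 (SE 0.038) and 1.07 (SE 0.038). After subtracting each line's mean, the genes outside the 37 whose levels over the 12 libraries were most like the members' mean profile were GRSF1 (r = 0.992), SELT (0.991), ANKS1A (0.988), BAZ1B (0.988), FRMD5 (0.986), MTMR2 (0.985), STK17A (0.985) and GOLGA4 (0.982). These points share treatment groups and are given with no test.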
